A study of Vanessa cardui with 14 samples.

Results

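The hind wing of the painted lady butterfly (Vanessa cardui) at the onset of black melanin was set against 2 dissected parts of the forewing, a red and a black region, across all assembled genes. The members are 6 of the 14 libraries of the series, chosen by their column labels: 2 of melanin stage hind wings, 2 of red and 2 of black forewing regions. Caterpillars were reared at 28 °C with 16 h of light and 8 h of dark. No mutant, drug or other treatment entered any group, and the labels give neither the sex, the number of animals per library nor whether a wing or several were pooled. Hind wings were taken whole, and forewings as dissected regions, so the wing and the kind of sample changed together and cannot be told apart. On the stage of the forewing samples the labels disagree, the titles and stage field giving melanin and the treatment protocol ommochrome development. The remaining 8 libraries are hind wings of the last larval instar, of pupae at 72 h and 5 d, and of the ommochrome stage, when red and orange pigment appears, with 2 libraries each.

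Forewing and hind wing of an insect grow from separate imaginal discs that share most of their patterning genes. In butterflies and flies the difference between them is set by the Hox gene Ultrabithorax, a transcription factor made in hind wing cells and absent from most of the forewing, which changes the use of many target genes in scales, veins and margins. Late in the pupa, scale cells fill with ommochromes made from tryptophan or with melanins made from tyrosine, while the cuticle of the wing is laid down and hardened. In whole tissue, fewer cells of a type and less RNA per cell cannot be told apart.

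The file identifies genes by assembled component and gene number, and pairs none of them with a name. Of 13876 identifiers, 0 matched the reference gene table, so neither Ultrabithorax nor any marker of a wing or cell type could be looked up, and no role is given to the genes named below. Values are FPKM, fragment counts scaled by gene length and library total. Summed FPKM were 588747 and 628027 in the melanin hind wings and 611438 to 739413 in the forewing libraries. Melanin hind wing replicate 1 stood apart: its depth, estimated from the steps worth 1 read, was 0.457 of that of larval replicate 1, against 1.28 in melanin hind wing replicate 2, 1.73 in red replicate 2 and 1.49 in black replicate 1. For red replicate 1 and black replicate 2 the estimate was not settled. Replicates differed on the log2 scale by an SD of 0.725 in melanin hind wings, 0.506 in red and 0.429 in black regions. Red replicate 2 and black replicate 2 differed by an SD of 0.434, about as little as the black replicates from each other.

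The abundant transcript with the widest gap in favour of the hind wing was c20540_g1. Melanin hind wings held 61181 and 29072 FPKM of it, red regions 1303 and 11187 FPKM, and black regions 9523 and 9077 FPKM. The groups did not overlap, and red replicate 1 lay far below the other forewing libraries. Its level was 5.81-fold higher in the hind wing by the ratio of means (log2 change 2.82, SE 0.695, limma adjusted p = 0.0199). It was called against red alone (log2 change 3.47, limma adjusted p = 0.0223) and not against black alone (2.18, adjusted p = 0.0939). It held 10.4% and 4.63% of the summed FPKM of the melanin hind wings, against 0.176% to 1.7% in forewings. In the earlier hind wings it was already abundant, between 7477 and 25873 FPKM. The call was lost in 4 of 26 other fits, among them without melanin hind wing replicate 1 (log2 change 2.29, adjusted p = 0.202), without black replicate 2 (adjusted p = 0.0536) and in the 6 libraries alone (adjusted p = 0.0576).

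Gene c27576_g1 followed in size of the gap. Melanin hind wings held 6812 and 2329 FPKM of it, against 0.01 to 0.06 FPKM in the 4 forewing libraries. Every one of the 10 hind wing libraries held at least 517.4 FPKM of it. The log2 change was 11.91 (SE 0.486, limma adjusted p = 9.4e-07), and ran from 9.63 to 14.89 over the 26 other fits. Where one wing is at or near 0, the size of a log2 change is set largely by the pseudocount.

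On the forewing side, c24676_g3 reached 6928 and 10516 FPKM in melanin hind wings, against 42694 and 29625 FPKM in red regions and 19514 and 22266 FPKM in black ones. No hind wing library reached the lowest forewing library. The change was -1.67 log2 (SE 0.385, limma adjusted p = 0.0151), a ratio of 0.306, and the call was lost without melanin hind wing replicate 1 (log2 change -1.37, adjusted p = 0.168). The gene was called against red alone (log2 change -2.06, limma adjusted p = 0.017) and not against black alone (-1.29, adjusted p = 0.0786). In the hind wing series its means were 105.9, 925.2, 1826 and 7279 FPKM in larva, 72 h, 5 d and ommochrome stage. At the melanin stage the mean was 8722 FPKM.

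Gene c26789_g2 had 1203 and 1555 FPKM in melanin hind wings, against 10169 and 9554 FPKM in red and 6536 and 8549 FPKM in black regions. Both hind wing values lay under every forewing value. The change was -2.65 log2 (SE 0.372, limma adjusted p = 0.00164), a ratio of 0.158, and it stayed called in each of the 26 other fits run, from -2.97 to -2.05 log2. Both ommochrome hind wings, at 1592 and 1413 FPKM, were at the level of the melanin ones.

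**Figure D1:**
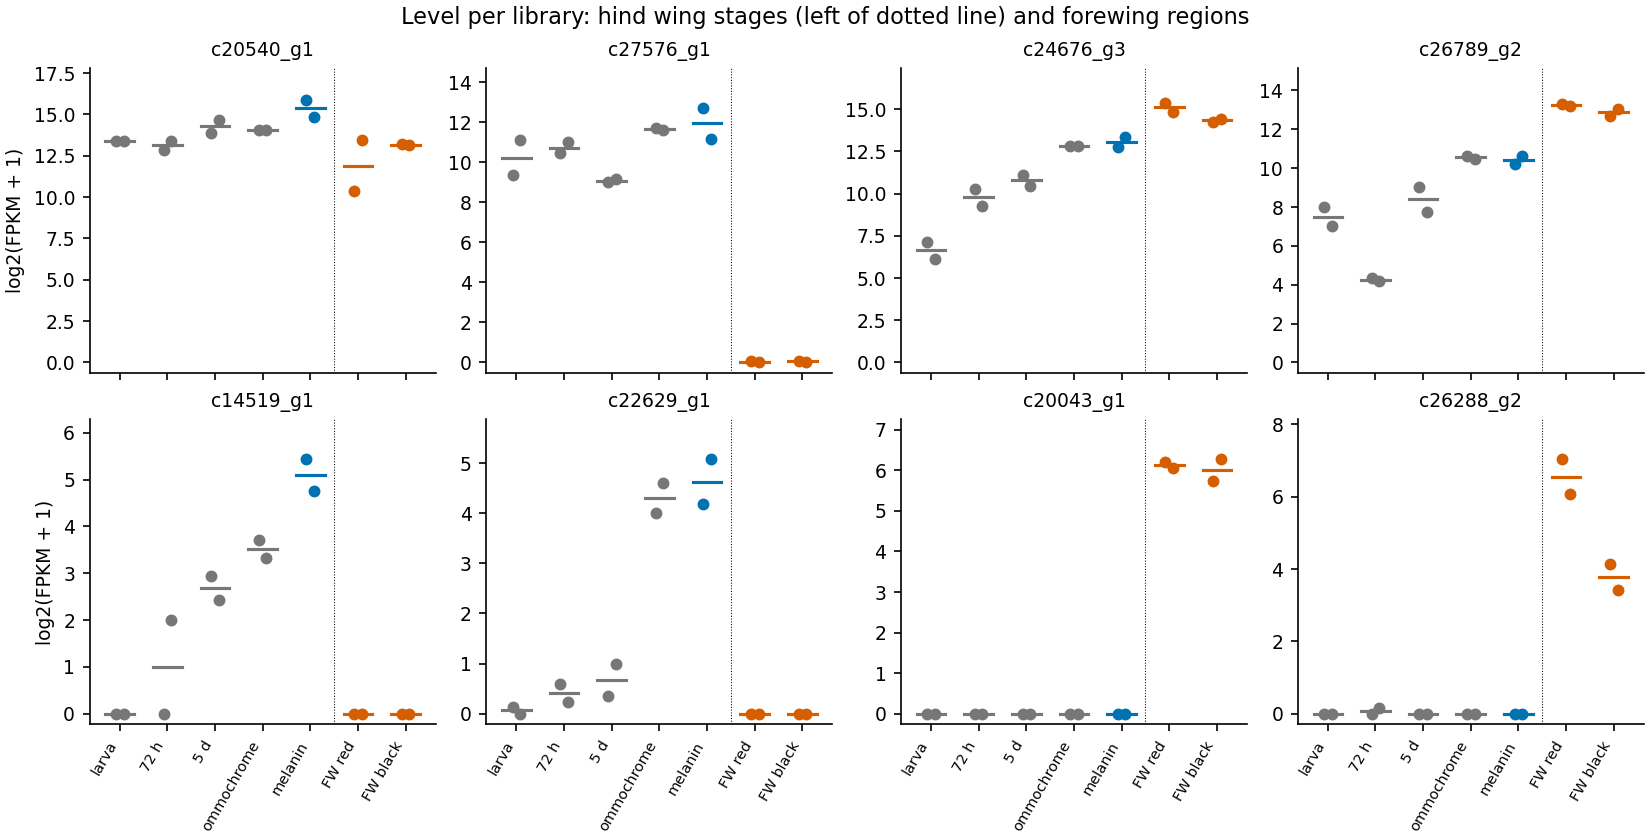
Level of 8 named genes in each of the 14 libraries, as log2(FPKM + 1); each point is a library and each bar the mean of 2. Hind wing stages run left of the dotted line in order of development, with the melanin stage in blue, and forewing regions right of it in orange. c27576_g1 is high in all 10 hind wing libraries and near 0 in the forewing, and c20043_g1 is at 0 in all 10 hind wing libraries.

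Of the 20 genes with the highest mean in each wing, 15 were the same, and of the 25 genes in either list 3 were called higher and 4 lower in the hind wing, while 18 were not called; over all tested genes 21.2% were called. The genes called higher in the hind wing together held 23.2% and 15% of the summed FPKM of the melanin hind wings, against 3.26% to 4.62% in forewings. Those called lower held 4.36% and 6.62% in melanin hind wings, against 13.7% to 17% in forewings. These sums describe genes picked by the same contrast and test nothing.

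Some genes were on in one wing and off in the other, taken as at least 5 FPKM in every library of the one and at most 0.1 FPKM in every library of the other. Of 10780 tested genes, 6 met this in the hind wing (0.0557%) and 12 in the forewing (0.111%). Mean levels where on were 12.6 to 4570 FPKM with a median of 22.6 in the hind wing set, and 6.52 to 66.8 FPKM with a median of 15.6 in the forewing set. Of the 6 hind wing genes, 3 were listed at 0 in all forewing libraries, and 11 of the 12 forewing genes were listed at 0 in both melanin hind wings.

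After c27576_g1, the hind wing gene with the highest mean was c14519_g1. Melanin hind wings held 42.49 and 26.24 FPKM of it, and it was listed at 0 in all 4 forewing libraries. Its level climbed along the hind wing series, with both larval libraries at 0, 72 h at 0 and 3.02, 5 d at 6.71 and 4.42, and ommochrome stage at 12.01 and 9.09 FPKM. The log2 change between the wings was 5.11 (SE 0.455, limma adjusted p = 0.000125), and 2.95 to 8.39 over the other fits.

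The next was c22629_g1, with 17.13 and 32.86 FPKM in melanin hind wings, and listed at 0 in all forewing libraries. It was under 1 FPKM in each of the 6 hind wing libraries up to 5 d, and at 15.07 and 23.25 FPKM at the ommochrome stage. Its change was 4.63 log2 (SE 0.296, limma adjusted p = 1.72e-05), and 2.53 to 7.90 over the other fits. Both c14519_g1 and c22629_g1 were picked as on in these hind wings and off in the forewing. A difference between the wings was thus fixed by the choice, so their p-values and their calls in other fits add no support.

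In the forewing set, c20043_g1 had a listed value of 0 in both melanin hind wings, against 72.46 and 65.94 FPKM in red and 51.91 and 76.78 FPKM in black regions. The other 8 hind wing libraries were at 0 as well (log2 change -6.07, SE 0.187, limma adjusted p = 2.38e-07, and -9.37 to -3.83 log2 over the other fits). Gene c26288_g2 had a listed value of 0 in both melanin hind wings, against 131.2 and 66.35 FPKM in red and 16.58 and 9.73 FPKM in black regions. All 4 forewing libraries exceeded the hind wings, and both red libraries exceeded both black ones. Its change was -5.17 log2 (SE 0.28, limma adjusted p = 6.36e-06, and -8.43 to -3.07 log2 over the other fits). The difference of black minus red was -2.78 log2 (SE 0.323, limma adjusted p = 0.00402). Both c20043_g1 and c26288_g2 passed the filter on low values through the forewing alone and were picked as off in the hind wing. They had to differ between the wings, so their p-values for that difference add no support.

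The 8 earlier hind wing libraries, which had no part in the on and off thresholds but entered the filter and the fit, are given with no test. All 6 hind wing genes were at 5 FPKM or more in both ommochrome libraries, 4 were at 1 FPKM or more in both 5 d libraries, and 1 each in both 72 h and both larval libraries. Of the 12 forewing genes, 6 were at 0 in all 10 hind wing libraries and 11 stayed under 1 FPKM in the 8 earlier ones. Only 14 of the 120 values of these 12 genes in hind wing libraries were above 0, the highest at 3.97 FPKM, and 11 of the 12 passed the filter on low values through the forewing and had to differ. Red and black regions lay within 1 log2 of each other in 11 of these 12, c26288_g2 being the exception, and in 97% of all tested genes. With melanin hind wing replicate 2 left out, the sets grew to 33 and 29 genes, and without red replicate 2 the hind wing set was 11. At 5 FPKM or more in all forewings, 18 genes were at 0 in melanin hind wing replicate 1 but not in replicate 2, and 4 the other way round.

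Across all tested genes, 1640 were higher and 650 lower in the melanin hind wing than in the mean of the forewing regions, at a limma adjusted p under 0.05. That was 21.2% of 10780 genes, 15.2% higher and 6.03% lower. By size, 227 (2.11%) were higher and 113 (1.05%) lower by at least 2 log2, and the median called change was 1.22 log2 upward and -1.27 log2 downward. The libraries of the wings did not overlap in 1626 of the higher and 606 of the lower calls. Such separation was common without a call, with 3617 genes of all tested having both hind wing libraries above the 4 forewing ones and 1776 below them.

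The direction of the calls depended on scaling. The median gene lay 0.205 log2 above 0 in the hind wing with the deposited values, and -0.0072 log2 with median-of-ratios factors. With these factors 1124 were higher and 1373 lower, with quantile normalization 1015 and 1195, and with equal FPKM totals 2277 and 596. At 2 log2 or more, the same factors gave 156 higher and 174 lower genes. Of the 1640 and 650 calls, 1123 and 650 were called in the same direction with those factors.

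**Figure D2:**
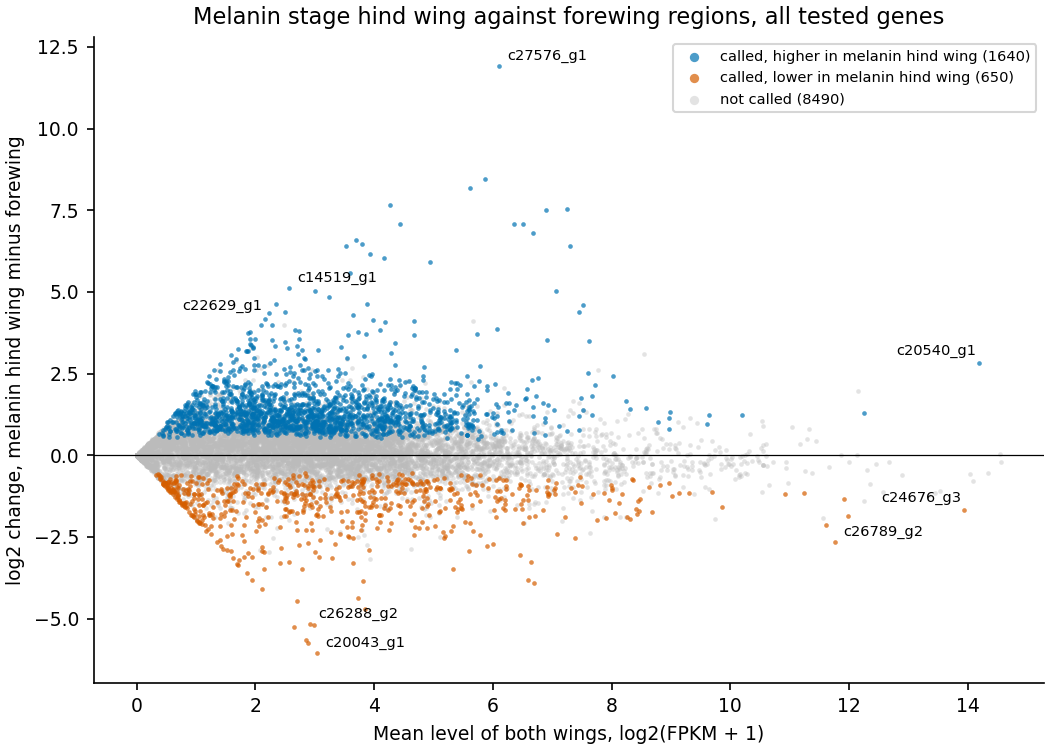
Log2 change of each tested gene, melanin hind wing minus the mean of the forewing regions, against its mean level in both wings as log2(FPKM + 1). Blue points are the 1640 genes called higher and orange points the 650 called lower in the hind wing; named genes are labelled.

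Direction also went with expression level. Among the 7816 genes with a mean of 1 to 50 FPKM over the 6 libraries, 1414 calls were higher in the hind wing and 466 lower, so that 75.2% were higher. Among the 1133 genes at 50 FPKM or more, 91 were higher and 131 lower, or 41% higher. With median-of-ratios factors these shares were 48.5% and 17.8%. Within the 48.5% the classes went both ways, with 60.3% of calls higher at 1 to 2 FPKM, 62.4% at 2 to 5, 49.4% at 5 to 10 and 35.7% at 10 to 50 FPKM. Under both scalings the calls at 2 to 5 FPKM were mostly higher in the hind wing and those at 50 FPKM or more mostly lower. The share called in either direction was 10.3% below 1 FPKM, between 19.3% and 26% from 1 to 1000 FPKM, and 13.8% among the 87 genes above that.

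**Figure D3:**
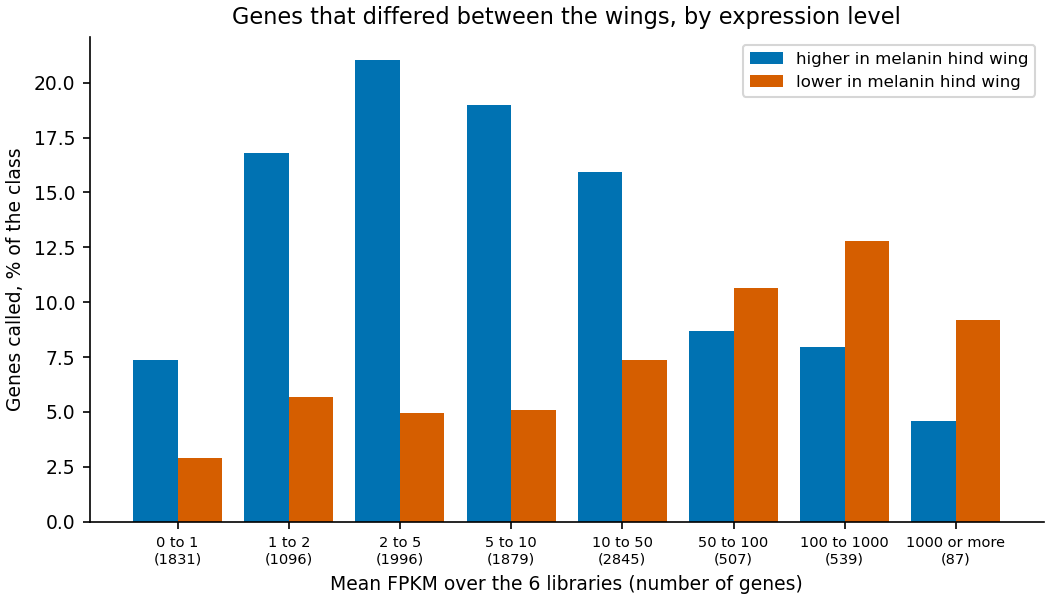
Share of genes called higher (blue) and lower (orange) in the melanin hind wing, by mean FPKM over the 6 libraries, with the number of genes in each class below it. With the deposited scaling, higher calls exceed lower ones up to 50 FPKM and lower calls exceed higher ones above that; with median-of-ratios factors lower calls exceed higher ones already from 5 FPKM.

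The count rested on 1 hind wing library more than on the other. Without melanin hind wing replicate 1 limma called 554 genes, 384 higher and 170 lower, of which 362 and 160 were among the 1640 and 650. Without melanin hind wing replicate 2 it called 2655. In these fits the lone hind wing library is assumed to vary like the other groups. Counts were 1508 without red replicate 2, 1355 without black replicate 1 and 1264 without black replicate 2. Among the 227 genes higher by at least 2 log2, replicate 1 was above replicate 2 in 152 and below it in 75, and among the 113 lower ones it was above in 23 and below in 66. Over all tested genes replicate 1 was above replicate 2 in 5968 and below it in 4295, and both lists were picked with these same values. Replicate 1, the library of lowest depth, had 3641 genes at 0, against 2368 in replicate 2; the part of depth in the count was not tested.

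**Figure D4:**
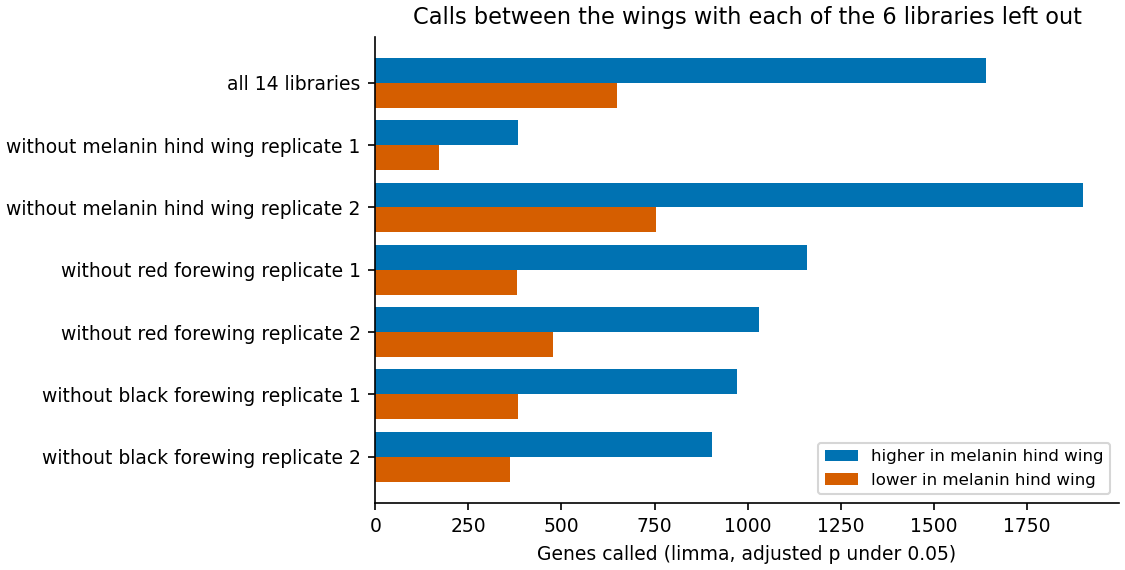
Genes called between the wings with all 14 libraries and with each of the 6 libraries left out in turn, higher (blue) and lower (orange) in the melanin hind wing. The shortest bars, 384 and 170, are those without melanin hind wing replicate 1.

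The levels of the genes with large changes are next given, with no test, in the earlier hind wing stages. Those 8 libraries entered the filter and the shared estimate of the spread, though not the difference between the wings, so they are not independent of the choice of genes. For the 227 genes higher in the melanin hind wing the median level was 3.65 FPKM in larval wings, 2.68 after 72 h, 8.73 after 5 d, 15.5 in ommochrome and 19.3 FPKM in melanin hind wings, against 1.96 in red and 1.48 in black regions. Over all tested genes the medians ran from 5.22 to 10.2 FPKM in those hind wing stages. The share of the 227 at 1 FPKM or more in both libraries was 62.1% in larva and 50.7% at 72 h, under the 81.2% and 75.2% of all genes. It was 78% at 5 d and 93.8% at the ommochrome stage, above the 75.6% and 80.9% of all genes. Among the 4 earlier stages the highest mean of 109 of them (48%) was at the ommochrome stage, against 17.5% of all genes. With median-of-ratios factors it was 50% against 23.2%. The share of the higher list at 1 FPKM or more in larva depended on scaling, being 42.9% with those factors. It was then 45.5% at 72 h, 79.5% at 5 d and 92.9% at the ommochrome stage.

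For the 113 genes lower in the melanin hind wing the median was 0.89 FPKM in larval wings, 1.49 after 72 h, 0.93 after 5 d, 4.03 in ommochrome and 1.81 FPKM in melanin hind wings, against 25.3 in red and 18 in black regions. Their highest earlier mean lay at the ommochrome stage in 42 (37.2%), against 17.5% of all genes, and in 44.8% against 23.2% with median-of-ratios factors. Of these genes, 29 (25.7%) stayed under 1 FPKM in all 10 hind wing libraries, against 1.61% of all tested, and these passed the filter through the forewing alone. So did all 174 tested genes of this kind. The filter and the choice of genes lower in the hind wing thus favour the larger share, and it adds no support. Of the 113, a further 28 were at 1 FPKM or more in all 10. The 2 regions lay within 1 log2 of each other in 98 of the 113 and in 207 of the 227, against 97% of all genes.

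The lists held 158 and 66 genes without melanin hind wing replicate 1, and 365 and 224 without replicate 2. Without replicate 1, the share of the lower list at 1 FPKM or more was 27.3% in larva, 27.3% at 72 h and 22.7% at 5 d, against 42.5%, 45.1% and 40.7% with all libraries. Without replicate 2 it was 61.2%, 54.9% and 58.9%, and at 3 log2 or more with all libraries it was 19.4% in larva, so these shares depended on the libraries and on the threshold. For the higher list without replicate 1 it was 53.2% against 62.1% in larva and differed less at the later stages.

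**Figure D5:**
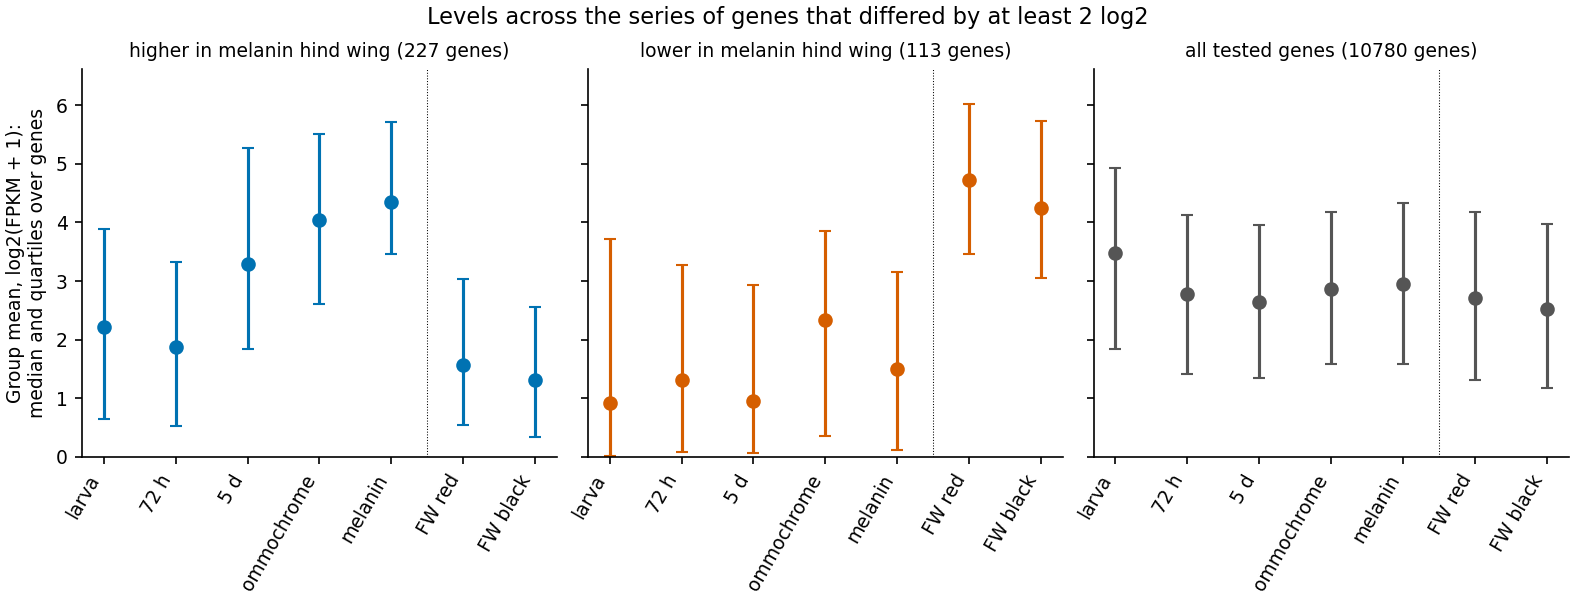
Median and quartiles over genes of the group mean, as log2(FPKM + 1), for the 227 genes higher and the 113 genes lower in the melanin hind wing by at least 2 log2, and for all 10780 tested genes. The higher list climbs to the ommochrome and melanin hind wings and is low in both forewing regions. The lower list is low in all hind wing stages, and 29 of its 113 genes passed the filter through the forewing alone.

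The hind wing was also set against each region alone. Against the red region 882 genes were higher (8.18%) and 550 lower (5.10%) in the melanin hind wing, together 13.3% of those tested. Against the black region 1287 were higher (11.9%) and 329 lower (3.05%), together 15.0%. By at least 2 log2, 188 (1.74%) were higher and 159 (1.47%) lower against red, and 246 (2.28%) higher and 90 (0.835%) lower against black. Both comparisons use the same hind wing libraries. The median gene lay 0.135 log2 higher in the hind wing against red and 0.277 log2 higher against black. With median-of-ratios factors the calls were 784 higher and 963 lower against red, and 723 higher and 848 lower against black. Against red, calls numbered 390 with melanin hind wing replicate 1 left out, and 389 and 527 with red replicate 1 or 2 left out. Against black, they numbered 435 with melanin hind wing replicate 1 left out, and 379 and 367 with black replicate 1 or 2 left out.

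In a minority of these calls the other region overlapped the hind wing. Among genes called against red, 10 of 882 higher and 60 of 550 lower ones had a black library within or beyond the hind wing values. Among genes called against black, 46 of 1287 higher and 36 of 329 lower ones had a red library there. The share of such overlap over all tested genes was not taken, so these counts are not a result about direction. Red and black lay within 1 log2 of each other in 97% of all tested genes.

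Gene c23758_g4 was lowest against red among genes whose black values overlapped the hind wing. Melanin hind wings held 6.48 and 6.76 FPKM of it and red regions 73.77 and 64.28 FPKM, with black regions at 5.45 and 6.83 FPKM. Of the 6 libraries compared, the red ones alone were high, and the 2 larval hind wings reached 46.16 and 71.02 FPKM. The change against red was -3.20 log2 (SE 0.59, limma adjusted p = 0.009), against black 0.10 (SE 0.59, adjusted p = 0.943), and black minus red was -3.30 (adjusted p = 0.0352). The call against red was lost without melanin hind wing replicate 1 (adjusted p = 0.0636) and without red replicate 1 (adjusted p = 0.063).

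Gene c21169_g1 showed the same order at a low level, with 0 and 0.56 FPKM in melanin hind wings, 8.12 and 7.85 FPKM in red regions and 0.12 and 0.45 FPKM in black regions. The change against red was -2.85 log2 (SE 0.261, limma adjusted p = 0.000216), and black minus red was -2.82 (adjusted p = 0.00132). The gene reached 1 FPKM in the 2 red libraries alone, so it passed the filter through the group where it is high and had to differ, and it was not tested with either red library left out.

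Of the genes higher in the hind wing than in red, the rule named c8171_g1 and c11187_g1. Gene c8171_g1 had 6.64 and 3.96 FPKM in melanin hind wings and 0.49 and 0 FPKM in red regions, with black regions apart at 0.63 and 5.92 FPKM (against red 2.33 log2, SE 0.613, limma adjusted p = 0.0346). Gene c11187_g1 had 42.42 and 20.69 FPKM in melanin hind wings and 8.66 and 3.19 FPKM in red regions, with 24.17 and 12.54 FPKM in black regions (against red 2.27 log2, SE 0.63, limma adjusted p = 0.0417). Both calls were weak, each being lost in 10 of 26 other fits, among them without melanin hind wing replicate 1 (adjusted p = 0.21 and 0.263) and without either red library. For neither gene did the difference between black and red pass the test (adjusted p = 1 for each).

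Among genes whose red values overlapped the hind wing, the largest rises against black were of 2 genes of one component, between which reads may have been divided. Gene c23145_g1 had 52.99 and 59.65 FPKM in melanin hind wings and 1.5 and 6.95 FPKM in black regions, with 50.09 and 99.53 FPKM in red regions. The hind wing lay within the red range (against black 3.68 log2, SE 0.597, limma adjusted p = 0.00447; black minus red -4.01, adjusted p = 0.0137). Gene c23145_g3 had 223.1 and 189.7 FPKM in melanin hind wings and 12.69 and 32.54 FPKM in black regions, with 260.6 and 387.7 FPKM in red regions (against black 3.27 log2, SE 0.847, limma adjusted p = 0.0321). Its call was lost in 7 of 26 other fits, to 0.187 at most, among them without either hind wing library (adjusted p = 0.167 and 0.0603) and without either black one (adjusted p = 0.187 and 0.0813).

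Among genes of the same kind, the deepest falls against black were of c23104_g1 and c28846_g6. Gene c23104_g1 had 180.6 and 119.6 FPKM in melanin hind wings and 1385 and 1408 FPKM in black regions, with 159.3 and 140.3 FPKM in red regions. Red and hind wing overlapped, with means of 150.1 FPKM in the hind wing, 149.8 FPKM in red and 1397 FPKM in black (against black -3.24 log2, SE 0.231, limma adjusted p = 5.42e-05). It was at most 0.21 FPKM in larval and 72 h hind wings, 19.12 and 16.24 FPKM at 5 d and 170.8 and 147.7 FPKM at the ommochrome stage. Gene c28846_g6 had 73.61 and 169.9 FPKM in melanin hind wings and 822.4 and 798.7 FPKM in black regions, with 79.25 and 76.26 FPKM in red regions (against black -2.85 log2, SE 0.381, limma adjusted p = 0.00162).

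The place of the hind wing mean is next given for genes that the regions themselves separated. Between the regions 81 genes were called (0.751%). Of the 22 higher in black (0.204%), the hind wing mean was between the regions in 14, below both in 8 and above both in 0. Of the 59 higher in red (0.547%), it was between in 36, below both in 18 and above both in 5. Among those between, the hind wing was nearer to black in 4 of 14 and in 28 of 36. These are positions on the log2 scale, with no test. The 81 genes were picked for a gap between the regions, which favours a hind wing mean between them. The same positions over all tested genes were not taken, so these counts are not a result about the hind wing.

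Because the labels disagree on the stage of the forewings, the forewing mean was placed beside the 27 genes called between melanin and ommochrome hind wings (0.250% of those tested). The forewing was nearer to the melanin level in 16 of them, 6 of the 13 higher and 10 of the 14 lower at the melanin stage. It was nearer to the ommochrome level in 7 and 4. Between the levels of both stages it lay in only 8 of the 13 and 5 of the 14. It lay beyond the melanin level in 3 and 5, and beyond the ommochrome level in 2 and 4. The stage of the forewings was not tested.

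Genes of one assembled component can be similar sequences, so each component with 2 or more tested genes was examined. Of 1513 such components, 119 held 2 or more genes called between the wings. In 64 at least 2 were higher and in 45 at least 2 were lower, and 14 held calls in opposite directions. Over all tested genes 15.2% were called higher and 6.03% lower. The number of such components to be expected from these shares was not taken, so the counts are a description. In component c28853, chosen as an example after its values were seen, c28853_g1 had 0.27 and 0.35 FPKM in melanin hind wings, against 19.88 and 10.68 FPKM in red and 13.77 and 11.35 FPKM in black regions. The other gene, c28853_g2, had 28.7 and 39.69 FPKM in melanin hind wings, against 7.61 and 6.36 FPKM in red and 5.13 and 3.65 FPKM in black regions. The changes were -3.47 log2 (limma adjusted p = 0.00489) and 2.42 log2 (adjusted p = 0.000284), and without melanin hind wing replicate 1 they were -3.43 (adjusted p = 0.0546) and 2.64 (adjusted p = 0.00302). The 14 components fell to 1 without melanin hind wing replicate 1, to 4 or 5 without any one forewing library, and rose to 24 without melanin hind wing replicate 2. Genes in shared components were called at 18%, against 22.8% of genes alone in theirs.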

How the data were processed

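Polyadenylated RNA of 14 wing libraries was sequenced as 150 bp paired-end reads, and Bowtie did the alignment, per the submitters' processing notes. The series title names a de novo transcriptome, with assembler, quantifier and filters not given in the sources used here. Each library has 1 column of FPKM as deposited by the authors. Depth was estimated from the steps worth 1 read in values of 0.15 to 3 FPKM (56 of 91 library pairs within 0.1 log2; tested on simulated data).

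The 10780 of 13876 genes reaching 1 FPKM in 2 or more libraries were analysed as log2(FPKM + 1), which understates changes of low genes. limma 3.58.1 in R 4.3.3 fitted 7 group means (7 residual and 2.88 prior degrees of freedom, spread prior following expression, no covariate). Tests were two-sided with Benjamini-Hochberg adjustment over all genes tested, called under 0.05; the hind wing was set against the mean of both regions and against each. The fit was tested on simulated data. Mean ± SD is replaced by the 2 values per group, and nothing says that replicates are separate animals, so p-values cover a spread that may be technical.

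Named genes: at most 2 per direction for the widest gap in mean FPKM among called, non-overlapping genes with a mean of at least 5 FPKM; for the highest mean among genes on in 1 wing alone; and for the largest log2 change against 1 region where the other overlapped the hind wing. Members, rules and lists were chosen with earlier results of these data known. Alternatives covered pseudocount, filter, scaling, weights, block, subsets of libraries and each library left out. Gene lists by name could not be applied. Python 3.11.15, NumPy 2.4.6, pandas 2.3.3 and matplotlib 3.10.9 were used.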

Additional observations from a re-analysis of the deposited data

Results flagged for a closer look

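For 6 named genes the change of the hind wing differed between the regions, by the limma test of black minus red over all tested genes: c26288_g2 (adjusted p = 0.00402), c23758_g4 (0.0352), c21169_g1 (0.00132), c23145_g1 (0.0137), c23104_g1 (0.000436) and c28846_g6 (0.00356). All but c26288_g2 were named because 1 region differed from the hind wing while the other overlapped it. That choice strongly favours genes that differ between regions, so these p-values add little support. Gene c21169_g1 also passed the filter through the red libraries alone and had to differ.

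In c8171_g1, black replicate 2, at 5.92 FPKM, stood apart from the other forewing libraries (0.49 and 0 FPKM in red, 0.63 FPKM in black), with a gap of 0.894 of the whole range of the 4. Chance flags about 1 in 20 such groups, and 16 genes were examined. That rate does not hold for c8171_g1. Its naming rule asked for red libraries outside the hind wing values and a black one within or beyond them, which favours this flag.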

How the results depend on the processing

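Requiring a change beyond 1 log2 (limma treat) left 151 genes against the forewing and 126 each against red and against black. The split by direction moved with scaling. With median-of-ratios factors, lower calls numbered 1373 against the forewing and 848 against black, in place of 650 and 329. Beyond the treat fits, totals of both directions in the 3 comparisons stayed within 1.5 times of those reported except with a library left out. Those ranges were 554 to 3050 against the forewing, 389 to 2146 against red and 367 to 2263 against black. Genes on in the hind wing alone numbered 3 with off at exactly 0, 24 with off at 0.5 FPKM or less and 27 with on at 1 FPKM, and 6 to 33 with a library left out. Genes on in the forewing alone numbered 46 with on at 1 FPKM and 5 with on at 10 FPKM, and 12 to 29 with a library left out. Components with opposite calls numbered 25 with median-of-ratios factors, 8 at 1 log2 or more in both genes, and 1 to 24 with a library left out. No named gene reversed in any setting.

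With replicate number as a block, limma called 2251 genes against the forewing, 1406 against red and 1540 against black, and 2563, 1648 and 1762 in the 6 libraries alone. Deviations of same-numbered libraries correlated at -0.0045 (hind wing and red), 0.0442 (hind wing and black) and 0.431 (red and black). So same-numbered hind wing and forewing libraries showed little shared deviation, but same-numbered red and black libraries deviated together. Those differed by an SD of 0.508 and 0.434 in order of their numbers, and differently numbered red and black libraries by 0.599 and 0.524. The main fit had no block and took the forewing libraries as independent, in the forewing mean and in black minus red. Whether same-numbered libraries, of the hind wing or of the regions, came from the same animals was not tested. Depth of melanin hind wing replicate 1 limits the reading of low values and of zeros in that library.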
